A study of Mus musculus with 4 samples.

Results

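The genes described here encode the matrix metalloproteinases (Mmp genes other than Mmp8 and Mmp9), the ADAMTS proteases and the tissue inhibitors of metalloproteinases (Timp genes). They were taken by symbol from the array's gene names, which gave 44 of 37074 named genes on the array: 21 Mmp, 19 Adamts and 4 Timp genes, read by 88 probes. Mmp8 and Mmp9 were left out by the rule that chose the set. A probe entered the test if 2 or more arrays read it well above background (the scanner software's flag), which kept 28 of the 44 genes among 19326 genes tested: 13 Mmp, 11 Adamts and all 4 Timp genes.

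The arrays carried total RNA of whole colon from C57BL/6 mice on day 5 of drinking dextran sulphate sodium (DSS), which damages the colon epithelium and causes colitis. The mutant mice were Junb fl/fl Cd4-Cre (2 arrays), and the control mice were Junb fl/fl with no Cre named (2 arrays), so every mouse carried the floxed alleles and drank DSS, and there was no untreated colon. Cd4-Cre removes Junb, which encodes a subunit of the AP-1 transcription factor, in cells of the T cell lineage and leaves it in the stromal, epithelial and myeloid cells that make up most of the tissue. The comparison asked how the colon of the mutants, which the submitters describe as having worse colitis, differed from that of the controls. Scaled intensity below is the processed Cy3 intensity with the 75th percentile of each array set to 100, and a difference is the mean log2 value of the mutants less that of the controls. Differences are given with the moderated standard error of limma (SE, n = 2 and 2 arrays), and adjusted p is Benjamini-Hochberg over all 19326 genes. Scaled intensities of different genes come from different probes and are not compared with each other.

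The replicate 1 arrays of both genotypes had Xist well above background and Eif2s3y not, and the replicate 2 arrays the reverse, so by these genes replicate 1 was a female and replicate 2 a male colon in each genotype. The labels do not state sex. Differences within the replicate 1 pair and within the replicate 2 pair are therefore given beside the pooled ones, each being a comparison of 1 array with 1 array. Pearson's r between arrays ran across genes from 0.976, between the 2 controls, to 0.984, between the replicate 2 mutant and the replicate 2 control. The arrays thus did not group by genotype. All 5 epithelial and all 6 smooth muscle markers on the lists used were well above background on all 4 arrays. All 4 arrays lay on 1 slide, with the mutants at positions 3 and 4 and the controls at positions 1 and 2, so genotype and position cannot be told apart.

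Matrix metalloproteinases are zinc-dependent enzymes that are mostly secreted as inactive proenzymes and, once activated, cleave collagens, proteoglycans and other proteins outside the cell. ADAMTS proteases are secreted relatives that carry thrombospondin repeats and process procollagens and proteoglycans. TIMPs bind the active site of these enzymes and block it. In the inflamed gut, some stromelysins and collagenases are known as products of fibroblasts and macrophages in the ulcer bed. Several genes of the stromelysins and collagenases are textbook targets of AP-1.

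A group of 9 of the 44 genes lies in a single run of 10 protein-coding genes on chromosome 9, in the order Mmp13, Mmp12, Mmp1b, Mmp3, Mmp1a, Mmp10, Mmp8, Mmp27, Mmp20 and Mmp7 in RefSeq, where only Mmp8 is outside the set. AP-1 is known to bind heptamers of the form TGANTCA, chiefly those with C or G in the middle, and the form reads the same on both strands. This heptamer was searched in windows of 250 bases before to 50 bases after each RefSeq start site (GRCm38.p6). It stood in 8 of the 9 members in the run, all but Mmp27, and it was also absent from the window of Mmp8. In Mmp20 it read TGAATCA, with A in the middle. The heptamer stood in none of the 22 other members that had a window, and 13 members had no entry in the table. Over all 27025 genes with a window, 8.97% held it. A match describes the letters of the window and is no measure of binding. The 150 bases before the start site are printed for the 5 tested members in the run. These 5 are the members whose difference between the genotypes is described first. Capitals mark the heptamer, all sequences run 5′ to 3′ on the plus strand, and the source is RefSeq, GRCm38.p6.
Mmp13, chr9:7272364-7272513: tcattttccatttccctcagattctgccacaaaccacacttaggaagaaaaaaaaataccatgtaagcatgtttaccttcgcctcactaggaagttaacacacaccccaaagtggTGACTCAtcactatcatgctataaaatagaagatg
Mmp12, chr9:7347224-7347373: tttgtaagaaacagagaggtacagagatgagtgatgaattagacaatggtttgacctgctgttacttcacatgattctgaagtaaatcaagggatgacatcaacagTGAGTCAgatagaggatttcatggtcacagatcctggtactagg
Mmp3, chr9:7445672-7445821: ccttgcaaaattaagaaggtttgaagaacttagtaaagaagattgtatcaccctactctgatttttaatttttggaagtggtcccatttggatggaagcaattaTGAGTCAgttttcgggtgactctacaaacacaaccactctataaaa
Mmp10, chr9:7502192-7502341: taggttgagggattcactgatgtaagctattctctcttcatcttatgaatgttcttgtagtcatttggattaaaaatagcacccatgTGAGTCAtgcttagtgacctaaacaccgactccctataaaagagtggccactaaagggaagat
Mmp7, chr9:7691940-7692089: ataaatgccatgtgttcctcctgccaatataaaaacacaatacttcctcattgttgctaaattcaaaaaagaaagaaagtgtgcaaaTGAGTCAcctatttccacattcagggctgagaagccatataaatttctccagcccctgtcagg
The first base of the heptamer lay 35 bases before the start site in Mmp13, 44 in Mmp12, 46 in Mmp3, and 63 in both Mmp10 and Mmp7. Mmp12 and Mmp7 each have 2 windows in the table, of which 1 held it.

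No member of the set passed the adjusted threshold of 0.05 in limma, where 0 of 19326 genes (0%) passed, and the smallest adjusted p of a member was 0.417. An unadjusted p under 0.05 was found for 9.29% of all genes tested. Among the 28 tested members 0 were higher at that threshold, against 5.31% of all genes, and 5 were lower, against 3.98%. Of these 5, Adamts12, Adamts18 and Timp4 entered the test only through their signal in the controls, so they had to be lower, and Mmp12 entered only through the mutants, so it had to be higher. Among the 24 members that were well above background on all 4 arrays, 0 were higher and 2 (Mmp11 and Adamts8) were lower at the same threshold. A refit on such genes alone had 0 members higher, against 5.61% of its genes, and 3 lower, against 4.36%. In the direction of the difference, 12 tested members were higher and 16 lower in the mutant colon, with a median of -0.05 beside 0.02 over all genes tested. The median absolute difference was 0.43 over the members and 0.17 over all genes. The members also varied more within a genotype. Their median SE was 0.36, beside 0.17 over all genes, and their median absolute difference between the replicates 0.48, beside 0.16. The arrays of the genotypes did not overlap for 4 members that were higher, where 25.7% of all genes behaved so, and for 8 that were lower, against 17.6%. Both pairs had the same sign for 12 members that were higher, against 36.3% of all genes, and for 12 that were lower, against 29.1%. These counts include the 4 genes that entered through 1 genotype only. Among the 24 members well above background everywhere, the genotypes did not overlap for 3 that were higher and 5 that were lower. The share of all genes that did not overlap was counted under the looser filter of 2 arrays only, so these 2 counts have no matching share.

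**Figure D1:**
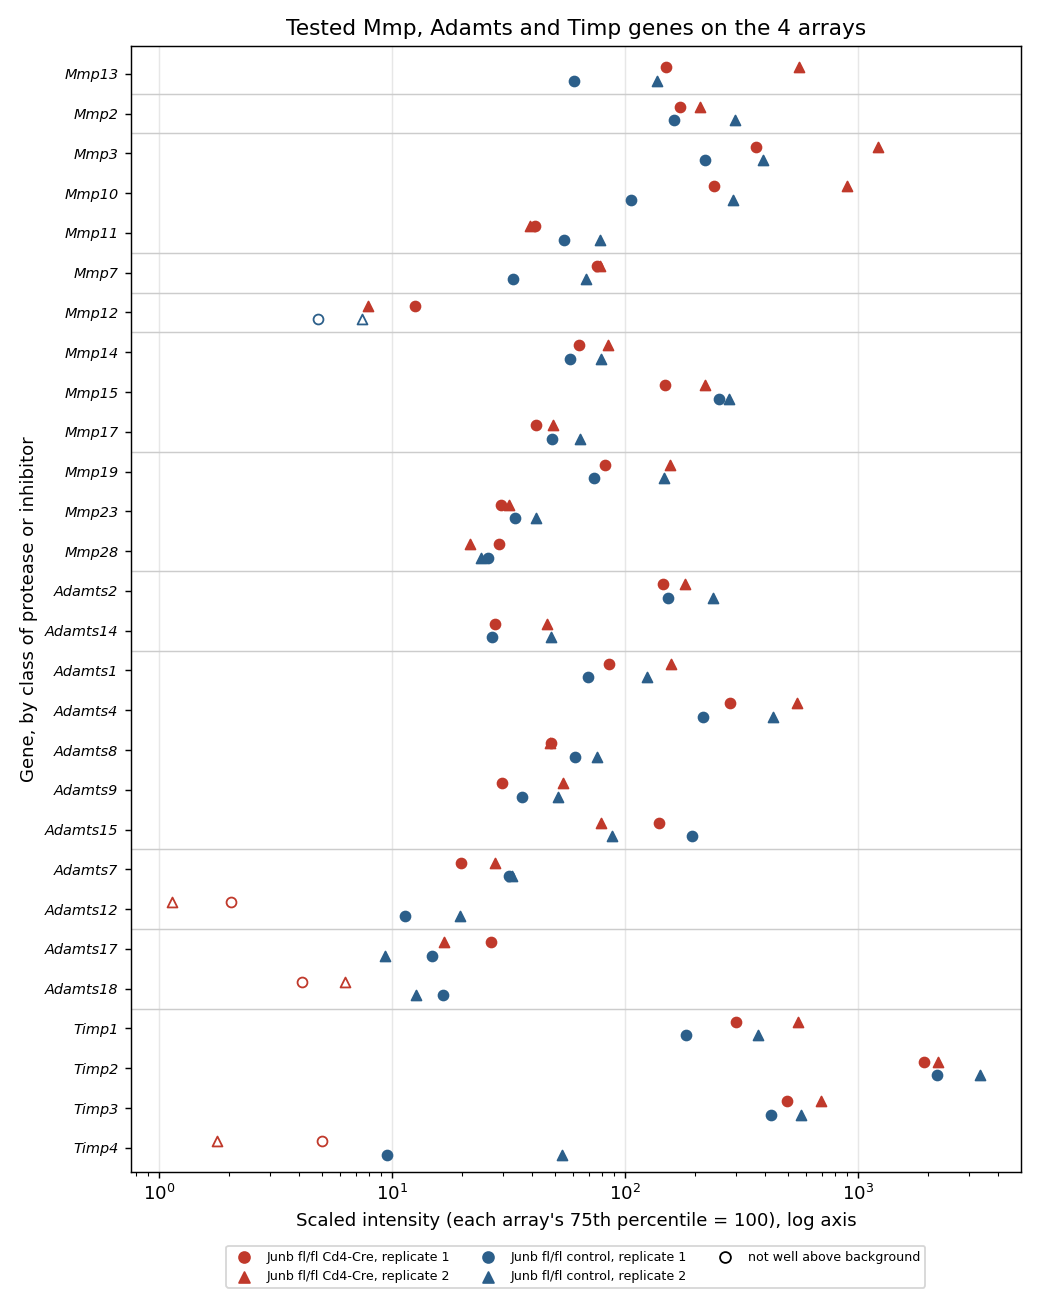
Scaled intensity (log axis) of the 28 tested Mmp, Adamts and Timp genes on each array, with the mutants (red) above the controls (blue) in each row, replicate 1 as circles, replicate 2 as triangles, and open symbols where the probe was not well above background. For Mmp3, Mmp10 and Mmp13 the replicate 2 array stands above the replicate 1 array in each genotype, and Adamts12, Adamts18 and Timp4 have open symbols in the mutants only.

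The tested members in the chromosome 9 run (collagenase, stromelysin, matrilysin and metalloelastase genes) were higher in the mutants in both pairs, though none passed the test. All 5 that were measured (Mmp13, Mmp12, Mmp3, Mmp10 and Mmp7) had a positive difference in the replicate 1 and in the replicate 2 pair, as 36.3% of all genes did. Mmp12 had to be higher, having entered the test through the mutants only, so the count rests on the other 4. The differences of all 5, Mmp12 among them, ran from 0.70 to 1.67, with a median of 1.19. Of the other 23 tested members, 7 were higher and 16 lower, with a median of -0.23. Adamts12, Adamts18 and Timp4, which had to be lower, are among the 16. The run was singled out after its values had been seen, so these counts describe it and test nothing.

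Mmp13 encodes collagenase 3, the main interstitial collagenase of mice. Its probe (chr9:7282762-7282821, mm9) gave scaled intensities of 149 and 559.9 in the mutants, against 60.7 and 137 in the controls. Both mutant arrays lay above both control arrays, the lower mutant only just. Mmp13 was 3.17-fold higher in the mutants (difference 1.67 ± 0.71, adjusted p = 0.565), with 1.30 in the replicate 1 pair and 2.03 in the replicate 2 pair. Mmp10 encodes stromelysin 2, which cleaves proteoglycans and activates other proenzymes of the family. Its probe (chr9:7510011-7510070, mm9) gave 241 and 897 in the mutants, against 107 and 291 in the controls, so that the replicate 1 mutant lay below the replicate 2 control. The difference was 1.40 ± 0.75 (adjusted p = 0.612), with 1.17 and 1.62 in the pairs. Mmp3 encodes stromelysin 1, a close relative of Mmp10. Its probe (chr9:7455751-7455810, mm9) gave 364 and 1219 in the mutants, against 219.6 and 390.4 in the controls, again with overlap of the genotypes. The difference was 1.19 ± 0.61 (adjusted p = 0.603), with 0.73 and 1.64 in the pairs. The replicate 2 mutant was the highest array for all 3 genes. Without it the differences were 0.71 for Mmp13, 0.45 for Mmp10 and 0.31 for Mmp3, and without mutant replicate 1 they were 2.62, 2.35 and 2.06.

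**Figure D2:**
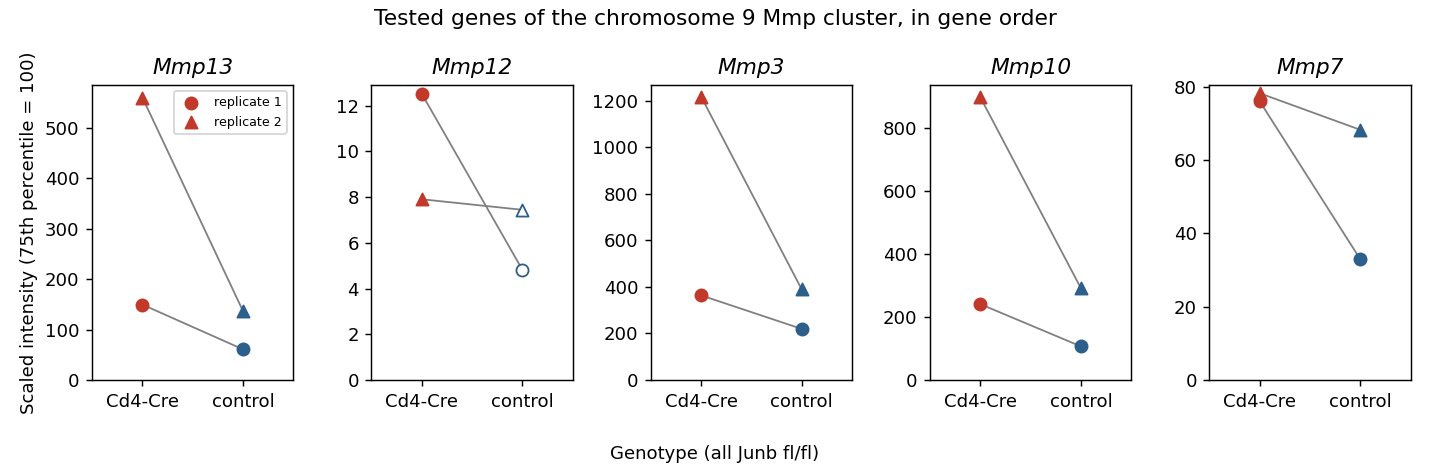
Scaled intensity (linear axis from 0, a separate scale for each gene) of the 5 tested members in the chromosome 9 run in the mutants (left) and controls (right), with grey lines joining arrays of the same replicate number and open symbols where the probe was not well above background. Every line falls towards the control, steeply in replicate 2 for Mmp13, Mmp3 and Mmp10 and in replicate 1 for Mmp7 and Mmp12.

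Mmp7 encodes matrilysin, an epithelial metalloproteinase without the hemopexin domain, known in the mouse small intestine for activating Paneth cell defensins. Its brighter probe (chr9:7699476-7699535, mm9) gave 76.0 and 78.2 in the mutants, against 32.9 and 68.2 in the controls. The mutant arrays were nearly equal and lay above both controls, and the replicate 1 control was the array that stood low. The difference was 0.70 ± 0.36 (adjusted p = 0.600), with 1.21 and 0.20 in the pairs, and it was 0.18 without control replicate 1 and 1.23 without control replicate 2. A second Mmp7 probe gave 0.76. Mmp12 encodes macrophage metalloelastase. It was close to background everywhere: its probe (chr9:7358559-7358618, mm9) gave 12.5 and 7.90 in the mutants, against 4.83 and 7.44 in the controls, where it was not well above background on either array. The bound for the means of the genotypes was 1.46-fold higher in the mutants on the processed intensity (adjusted p = 0.621), but single arrays fell short of it. The pairs gave 1.38 and 0.09. The measured difference was 0.73 with all arrays, 0.40 without mutant replicate 1 and 0.42 without control replicate 1. After normexp background correction it was 0.23. The other 2 Mmp12 probes, which gave -0.46 and 0.03, were well above background nowhere. Neither were the probes of Mmp1a, Mmp1b, Mmp20 and Mmp27, the remaining members in the run.

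Neutrophil and macrophage markers stood beside these genes as follows. The summed scaled intensity of 4 of 5 neutrophil markers was 5926 and 7913 in the mutants, against 5623 and 5122 in the controls. The brightest probe, that of Csf3r, made up 4080 and 4032 of the mutant sums and 4516 and 3719 of the control sums. S100a8 (2.24 ± 0.78) and S100a9 (2.24 ± 0.88) were higher in the mutants without passing the test, with adjusted p of 0.506 and 0.537, while Ly6g and Csf3r differed by -0.14 and -0.01. The sum of 5 macrophage markers was 6652 and 8559 in the mutants, against 6674 and 8858 in the controls. Lyz2 made up 4360 and 5613 of the mutant sums and 4391 and 6191 of the control sums. In bulk tissue, fewer cells of a type and less RNA per cell cannot be told apart, and the part of these cells in the protease values was not tested.

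Among the TIMPs, Timp1 and Timp3 were higher and Timp2 and Timp4 lower in the mutants, none past the test. Timp1 encodes the inhibitor that is induced by inflammatory cytokines. Its probe (chrX:20451675-20451733, mm9) gave 299 and 551 in the mutants, against 183 and 373 in the controls, and the genotypes overlapped. The difference was 0.64 ± 0.44 (adjusted p = 0.672), with 0.71 and 0.56 in the pairs, and it was 0.12 without control replicate 1 and 1.15 without control replicate 2. Timp1 is X-linked, and its higher array within each genotype was the male one. Timp2 encodes an inhibitor that also helps Mmp14 to activate the proenzyme of Mmp2. Its brighter probe gave 1923 and 2204 in the mutants, against 2185 and 3341 in the controls, of which replicate 2 stood highest (difference -0.39 ± 0.22, adjusted p = 0.626). The difference was -0.09 without control replicate 2 and -0.70 without control replicate 1. A second Timp2 probe gave -0.30.

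Timp3, whose product is bound to the extracellular matrix and also inhibits ADAMTS proteases, gave 497 and 694 in the mutants, against 424 and 569 in the controls. The genotypes overlapped and the difference was small (0.26 ± 0.22, adjusted p = 0.734), and a second probe gave 0.30. Timp4, known from heart and adipose tissue, gave 5.03 and 1.78 in the mutants, where it was not well above background, against 9.57 and 53.6 in the controls. The bound for the means of the genotypes was 4.41-fold lower in the mutants (unadjusted p = 0.027 by limma, adjusted p = 0.477). The pairs gave -0.93 and -4.91, so the replicate 1 pair fell short of this bound, and the replicate 2 control set most of the size. Without that array the measured difference was -1.68, beside -2.92 with all arrays. After normexp background correction it was -0.88 with an unadjusted p of 0.088 by limma (adjusted p = 0.655), so neither the bound nor the unadjusted call held there. Normexp with its offset of 50 pulls dim values together by construction. The other 2 Timp4 probes, at -0.72 and -0.21, were at background throughout. The summed scaled intensity of 3 of 4 adipocyte markers was 236 and 198 in the mutants, against 1099 and 626 in the controls, so it was lower in the mutants as well, although its highest array was control replicate 1. Cfd made up most of this sum, at 213 and 166 in the mutants, against 1025 and 583 in the controls. Adipoq (-2.24) and Cfd (-2.04) were lower and Lep (0.30) was not. The part of fat in the Timp4 signal was not tested.

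**Figure D3:**
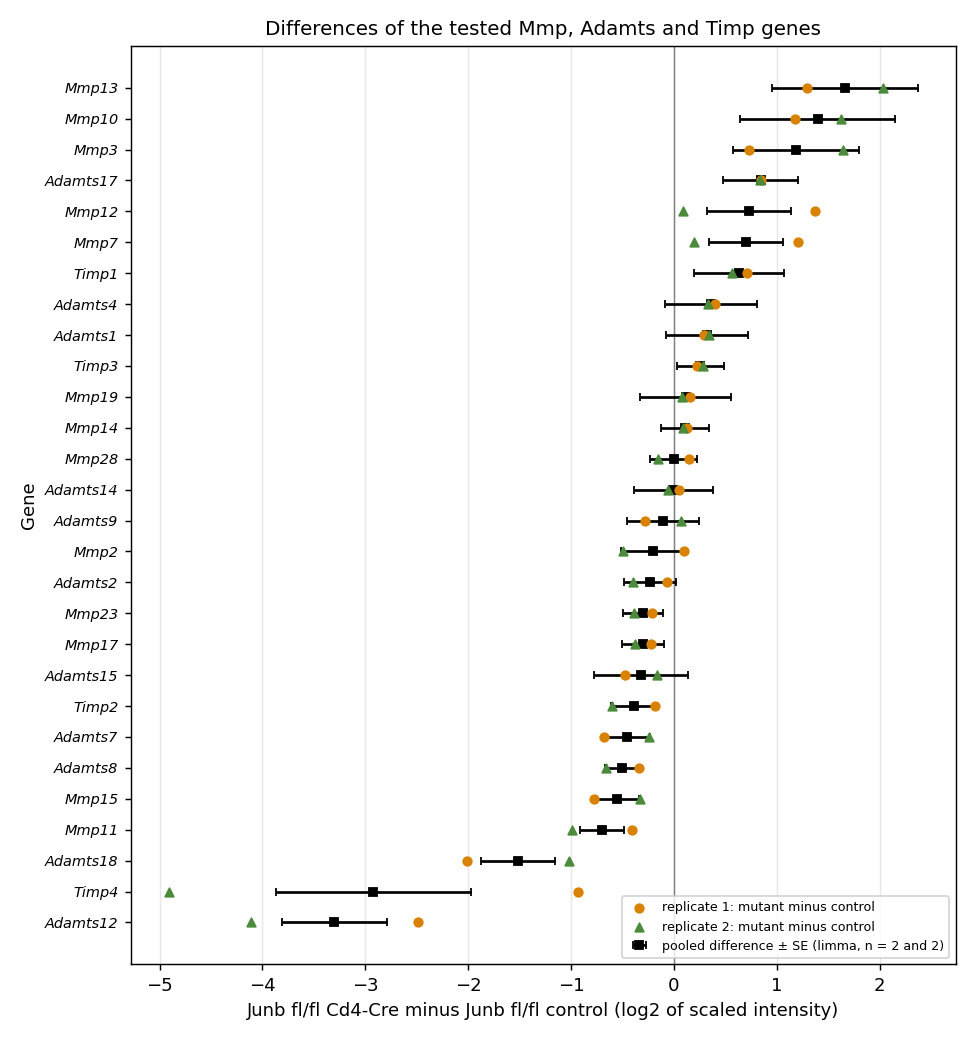
Mutant minus control differences (log2 of scaled intensity) of the 28 tested Mmp, Adamts and Timp genes, sorted, with the pooled difference ± SE (black squares, n = 2 and 2 arrays) and the differences within replicate 1 (orange circles) and replicate 2 (green triangles). Mmp13, Mmp10 and Mmp3 stand at the top and Adamts18, Timp4 and Adamts12 at the bottom, the last 3 and Mmp12 being measured values of probes near background in 1 genotype, for which the text gives bounds.

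The gelatinase Mmp2 and the membrane-type enzymes Mmp15 and Mmp17 were lower in the mutants and Mmp14 was slightly higher, none past the test. Mmp2 encodes gelatinase A, made by fibroblasts. It gave 173 and 211 in the mutants, against 162 and 298 in the controls, with overlap (difference -0.20 ± 0.31, adjusted p = 0.862), and its sign differed between the pairs, at 0.10 and -0.50. Without control replicate 2 the difference was 0.24. Mmp14 encodes the membrane-type collagenase that activates Mmp2, and gave 63.4 and 84.3 in the mutants, against 57.9 and 79.2 in the controls (0.11 ± 0.23, adjusted p = 0.901). Mmp15, a second membrane-type enzyme, gave 148 and 221 in the mutants, against 252 and 278 in the controls. Both mutant arrays lay below both controls (-0.55 ± 0.22, adjusted p = 0.538). Mmp17 differed by -0.30 ± 0.20. The summed scaled intensity of the 8 fibroblast markers was 9050.4 and 11439 in the mutants, against 9112 and 14274 in the controls. It was highest in control replicate 2, which was also the highest array for Mmp2 and Timp2. Of the 8 markers 7 were lower in the mutants, with a median of -0.19. The part of fibroblasts in these values was not tested.

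Mmp11 encodes stromelysin 3, a stromal enzyme with little activity on matrix itself. It gave 41.2 and 39.2 in the mutants, against 54.7 and 78.1 in the controls, and both mutants lay below both controls. Mmp11 was 1.63-fold lower in the mutants (difference -0.70 ± 0.22, unadjusted p = 0.022 by limma, adjusted p = 0.465), with -0.41 and -0.99 in the pairs. The unadjusted p stayed under 0.05 in 1 of the 4 fits that left out an array, the one without control replicate 1. The other tested Mmp genes, Mmp19, Mmp23 and Mmp28, differed by between -0.30 and 0.11.

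In the ADAMTS family, 3 of the 11 tested genes were higher and 8 lower in the mutants, with a median of -0.23. Of all genes tested, 53.3% were higher. Adamts12 and Adamts18 are among the 8 and had to be lower, having entered the test through the controls only. The proteoglycanases Adamts1 and Adamts4, which cleave aggrecan and versican and are known to be induced by inflammatory signals, were the ones besides Adamts17 with a positive difference. Adamts1 gave 85.4 and 157 in the mutants, against 69.6 and 124 in the controls, with overlap (0.32 ± 0.40, adjusted p = 0.822). Adamts4 gave 284 and 545 in the mutants, against 216 and 434 in the controls, also with overlap (0.36 ± 0.44, adjusted p = 0.819). Its other 2 probes gave 0.38 and 0.54. The sign of Adamts4 turned without control replicate 1 (-0.14) and without mutant replicate 2 (-0.11). Adamts8, a proteoglycanase that is known to be antiangiogenic, went the other way. It gave 48.3 and 47.9 in the mutants, against 61.3 and 75.6 in the controls, with no overlap (-0.50 ± 0.17, unadjusted p = 0.030 by limma, adjusted p = 0.489). Its unadjusted p stayed under 0.05 in the same 1 of 4 fits. The other proteoglycanases Adamts9 and Adamts15 differed by -0.11 ± 0.35 and -0.32 ± 0.46, and the procollagen N-proteinases Adamts2 and Adamts14, which trim fibrillar procollagens, by -0.23 ± 0.25 and -0.0043 ± 0.39.

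Adamts7 and Adamts12 cleave cartilage oligomeric matrix protein, which is also made by smooth muscle cells. Adamts12 (probe at chr15:11001462-11001521, mm9) gave 2.03 and 1.13 in the mutants, where it was not well above background, against 11.4 and 19.6 in the controls. On the processed intensity it was at least 3.28-fold lower in the mutants (unadjusted p = 0.0012 by limma, adjusted p = 0.417). After normexp background correction the difference was -0.69, smaller than this bound. The other 2 Adamts12 probes stayed at background on every array and gave 0.51 and -0.51. Adamts7 gave 19.8 and 27.7 in the mutants, against 31.7 and 32.8 in the controls, with no overlap (-0.46 ± 0.23, adjusted p = 0.598). All 6 smooth muscle markers were lower in the mutants at an unadjusted p under 0.05 and 0 at the adjusted threshold, with a median of -0.60 and a summed scaled intensity of 28165.5 and 26983 in the mutants, against 36372 and 39891.5 in the controls. The part of smooth muscle in the ADAMTS values was not tested.

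Adamts18, a further secreted ADAMTS protease, gave 4.11 and 6.29 in the mutants, where it was not well above background, against 16.6 and 12.7 in the controls. The bound for the means of the genotypes was 2.86-fold lower in the mutants (unadjusted p = 0.008 by limma, adjusted p = 0.418). The pairs gave -2.01 and -1.02, and the replicate 2 pair fell short of the bound. Both mutant signals lay above the lowest signal well above background on their arrays, so this bound equals the fitted fold and is no minimum. After normexp background correction the difference was -0.34, smaller than the bound. The other 3 Adamts18 probes did not pass the filter: 2 were well above background on control replicate 1 alone, and on 1 of these control replicate 2 (3.13) lay below both mutants (3.85 and 3.80). Adamts17, which takes part in the microfibrils of the matrix, gave 26.7 and 16.7 in the mutants, against 14.8 and 9.31 in the controls (0.84 ± 0.37, adjusted p = 0.565). Its genotypes did not overlap on this probe, but the other 2 probes that passed the filter gave 0.01 and -0.42, so the probes of Adamts17 disagreed in sign. The 16 genes that were not tested included 4 (Adamts5, Adamts6, Adamts10 and Adamts13) with a probe well above background on 1 array. The other 12 (Adamts3, Adamts16, Adamts19, Adamts20, Mmp1a, Mmp1b, Mmp16, Mmp20, Mmp21, Mmp24, Mmp25 and Mmp27) had no such probe.

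Within each genotype, many members also differed between the replicates. The replicate 2 array was higher than the replicate 1 array in both genotypes for 19 of the 28 tested members (67.9%), beside 36.8% of all genes, and lower in both for 3 (10.7%), beside 26.2%. Mmp10 differed between the replicates by 1.90 in the mutants and 1.45 in the controls, Mmp13 by 1.91 and 1.17, and Mmp3 by 1.74 and 0.83. For these genes the step between the replicates was about as large as the difference between the genotypes. Timp1 differed by 0.88 in the mutants and 1.03 in the controls, and Adamts4 by 0.94 and 1.01, more than their difference between the genotypes. Adamts15 went the other way, at -0.82 in the mutants and -1.14 in the controls. Replicate number and sex coincide here and 1 mouse stands for each, so sex and other differences between the mice cannot be told apart.

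**Figure D4:**
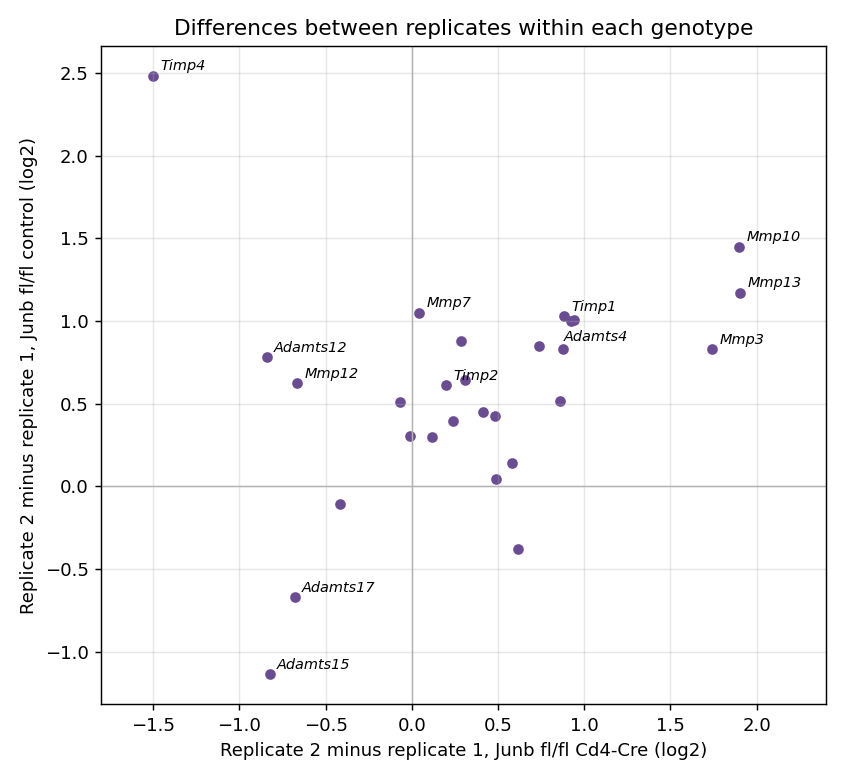
Difference between replicate 2 and replicate 1 (log2 of scaled intensity) in the mutants (horizontal axis) and in the controls (vertical axis), 1 point for each of the 28 tested genes. Mmp10, Mmp13 and Mmp3 lie far to the upper right, Timp1 and Adamts4 near 1 on both axes, and Timp4 at the upper left, where the replicates differ in opposite ways.

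A list of 44 other genes of matrix proteolysis (among them plasminogen activators, ADAM proteases, cathepsins and meprins) had 31 tested genes, of which 11 were higher and 20 lower in the mutants, with a median of -0.06. None passed the adjusted threshold. At an unadjusted p under 0.05, 1 was higher and 4 were lower, beside 5.31% and 3.98% of all genes. The one that was higher was Plaur, the urokinase receptor, at 356 and 389 in the mutants, against 292 and 291 in the controls (0.35 ± 0.11, adjusted p = 0.473). Its ligand Plau, urokinase, which activates plasminogen and through it several proenzymes of the Mmp family, gave 112 and 197 in the mutants, against 76.0 and 128 in the controls (0.59 ± 0.37, adjusted p = 0.647). Plau and the tissue activator Plat were higher in replicate 2 than in replicate 1 in both genotypes. The genes that were lower were the testican proteoglycans Spock1 (-0.62 ± 0.16) and Spock2 (-0.96 ± 0.37), the membrane protease Adam19 (-0.51 ± 0.14) and the brush border meprin subunit Mep1b (-0.39 ± 0.14), with adjusted p between 0.428 and 0.533.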

How the data were processed

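The files are scanner output of 4 one-colour arrays. Per the file headers, the authors' intensity values came from Feature Extraction 11.5.1.1 (Agilent), a version that the submitters' processing notes also name. The headers record spatial and multiplicative detrending within each array as switched on for the deposited processed intensity. No step between arrays is recorded there. The flags for well above background, outlier and saturated spots were used as deposited. No member probe was saturated.

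The 75th percentile of the processed intensity was 311 and 268 in the mutants and 330.0 and 329 in the controls. It was divided out, log2 taken, spots of a probe averaged without outliers, probes well above background on at least 2 arrays kept, and the brightest probe used for its gene. Probe positions are those of the files (mm9); RefSeq (GRCm38.p6) gave promoters and gene order. In R 4.3.3, limma 3.58.1 gave the differences (lmFit, then eBayes with the variance trended on intensity; two-sided tests; no block; prior degrees of freedom 3.12), checked on simulated data. With 2 samples a genotype, a p-value reflects only their spread, moderated towards that of other genes of similar intensity. The number of arrays limits the precision. A fold is a bound where no array of a genotype was well above background: the brighter mean is set against the dim arrays' mean, each dim array entering at its own signal or its lowest well-above-background signal, whichever is higher.

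Named were Timp1 to Timp4, Mmp2, Mmp3, Mmp7, Mmp10, Mmp12, Mmp13, Mmp14, members at p under 0.05, the 8 largest differences each way and members well above background in 1 genotype only. The members and lists were chosen with earlier results of these data known. The marker lists for endothelium, mast cells, enteric neurons and glia, T cells and pancreas had medians of -0.37, -0.17, -0.40, -0.36 and -1.99. The pancreas median rests on 2 of 4 genes, Amy2a5 (-3.68) and Cela1 (-0.29). Amy2a5, and Cd8a on the T cell list, entered the test only through the controls, so they had to be lower. The mast cell median was 1.21 in the replicate 1 pair and -1.52 in the replicate 2 pair. Alternatives covered background correction, scaling, filters, probe choice, variance trend, block and leaving out each array. The values of 1 gene on the list of other proteolysis genes are not reported here.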

Additional observations from a re-analysis of the deposited data

How the results depend on the processing

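No member passed an adjusted p of 0.05 in limma under any alternative run, and the smallest adjusted p of a member without a block lay between 0.336 and 0.735. The 19 named members kept their direction in 200 of 205 refits, but many of these left the difference itself unchanged. Those were the refits with another filter, without the variance trend or with a block. Every change of direction came from leaving out 1 array. The exceptions were Adamts4 (-0.11 without mutant replicate 2, and a range of -0.14 to 0.87 over the fits without 1 array), Mmp14 (-0.09 without mutant replicate 2, range -0.11 to 0.34) and Mmp2 (range -0.64 to 0.24, positive without control replicate 2). The median over tested members, -0.05 in the fit reported, was -0.20 without the filter on dim probes, where the median of all genes was -0.12, and ran from -0.38 to 0.19 without 1 array. Its value with 4 bounded members at their bound was again -0.05. At an unadjusted p under 0.05, 1 member was higher after normexp background correction (5.1% of all genes) and 1 after quantile normalization (4.33%), and 3 were lower with the filter on all 4 arrays (4.36%). Without 1 array, 1 to 3 members were higher and 2 to 8 lower, where 2.61% to 6.3% and 1.86% to 4.92% of all genes were. Normexp brought Adamts12 to -0.69, Timp4 to -0.88 and Adamts18 to -0.34.

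The replicate numbers were also fitted as a replicate block. With 2 pairs they share a number and, by Xist, a sex, and the deviations of same-numbered arrays from their group means correlated at 0.24 across genes. With the replicate block 46 of all genes passed the adjusted threshold and 0 members did, and at an unadjusted p under 0.05, 9 members were higher and 7 lower, where 10.1% and 7.44% of all genes were. Without the block these counts were 0 and 5. With the block the smallest adjusted p values among members by limma were 0.0563 for Mmp10 (1.40 ± 0.14) and 0.0703 for Mmp13 (1.67 ± 0.20). A block for slide or scan could not be fitted, since all 4 arrays shared both. Protein motifs were not searched, as no protein table was used here.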
